A study of Arabidopsis thaliana with 4 samples.

Results

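The genes described here encode the factors that start protein synthesis and move the ribosome along the message in Arabidopsis thaliana. They are the elongation factors eEF1A and eEF2, the initiation factors eIF2, eIF3 and eIF4, the factor eIF5A and the poly(A)-binding proteins, 34 genes in all. They were chosen by locus from these families and not by their values, though earlier results of these data were known. Release factors were left out. Of the 34, 33 had a decay index in each library, out of 17049 loci with an index in all 4 libraries and 23498 loci with one in any. EIF4G (AT3G60240), the large scaffold of the cap-binding complex eIF4F, had no index in any library and is not analysed further.

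The 4 libraries hold uncapped, polyadenylated RNA of plants of the Col-0 ecotype, read by global mapping of uncapped transcripts (GMUCT). This method sequences RNA from the first base left after the cap is lost. There are 2 abh1 libraries, from plants that lack the function of ABH1, which is the large subunit of the nuclear cap-binding complex, and 2 libraries titled Col-0_CHX, labelled wild type. All 4 are labelled immature inflorescence from plants of about 4 weeks under 16 h light and 8 h dark. Plants are described as not treated, and the letters CHX in the wild-type titles are not explained, so genotype and whatever CHX stands for cannot be told apart here. Nothing in the labels says whether the libraries of a group were grown as separate plants, and p-values here reflect just how far these libraries lie apart, a spread that may be technical.

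Each gene had 1 co-translational RNA decay index per library, a ratio without a unit. The labels do not give its formula or say what a value above or below 1 stands for. The depth behind an index is unknown, so it carries no counting interval. An exact value shared by over 10 loci of the same library (a repeated value) is used below as a sign of few reads.

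In the initiation phase, eIF2 brings the initiator tRNA to the small ribosomal subunit, and the many-subunit factor eIF3 holds that complex together. The eIF4 proteins bind the cap and unwind the leader, and poly(A)-binding protein ties the tail of the message to them. During elongation eEF1A delivers each charged tRNA, eEF2 moves the ribosome forward by a codon, and eIF5A helps it through peptides that are hard to join. In plants, as in yeast, an exonuclease can degrade an uncapped message from its front end behind the last translating ribosome, which is what co-translational decay refers to.

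The mutated gene ABH1 (AT2G13540) itself had an index in every library, 1.01 and 1.19 in abh1 versus 1.86 and 1.62 in Col-0_CHX. The index is not an expression level, so it does not check the genotype labels. The tissue label was held against marker genes by whether they had an index. Of 17 genes of floral organ identity and meristems, 17 were listed by the abh1 pair and 3 by the Col-0_CHX pair. Of 6 anther genes the counts were 6 and 0, of 6 root genes 2 and 1, and of 5 leaf defence and senescence genes 5 and 4. The floral and anther markers thus went with the abh1 libraries, and the part of this in the results below was not tested. Tissue and group cannot be told apart in these libraries.

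The median translation factor had an index close to that of the typical gene in abh1 and somewhat below it in Col-0_CHX. The median index of the 33 was 1.18 and 1.15 in abh1 versus 1.31 and 1.18 in Col-0_CHX. Over all 17049 loci it was 1.15 and 1.14 in abh1 versus 1.37 and 1.29 in Col-0_CHX. Within each library the median member stood at percentile 56.5 and 52.2 of all loci in abh1, and at percentile 44.6 and 37.4 in Col-0_CHX. Median percentiles differed between families in both groups, and in Col-0_CHX some also differed widely between the 2 libraries. In Col-0_CHX they were 61.1 and 35.4 for eIF4, 67.5 and 33.8 for eIF2, and 32.6 and 62.2 for the poly(A)-binding proteins. They were 49.1 and 40.9 for eIF3, 29.4 and 24.3 for eEF1A and eEF2, and 40.0 and 42.4 for eIF5A. In abh1 they were 47.4 and 45.0 for eIF4, 59.5 and 68.7 for eIF2, and 70.4 and 62.5 for the poly(A)-binding proteins. There eIF3 had 51.2 and 56.4, eEF1A and eEF2 had 45.8 and 46.8, and eIF5A had 57.3 and 61.1. These are values of whole tissue, where a change in the mix of cells and a change within cells cannot be told apart.

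**Figure D1:**
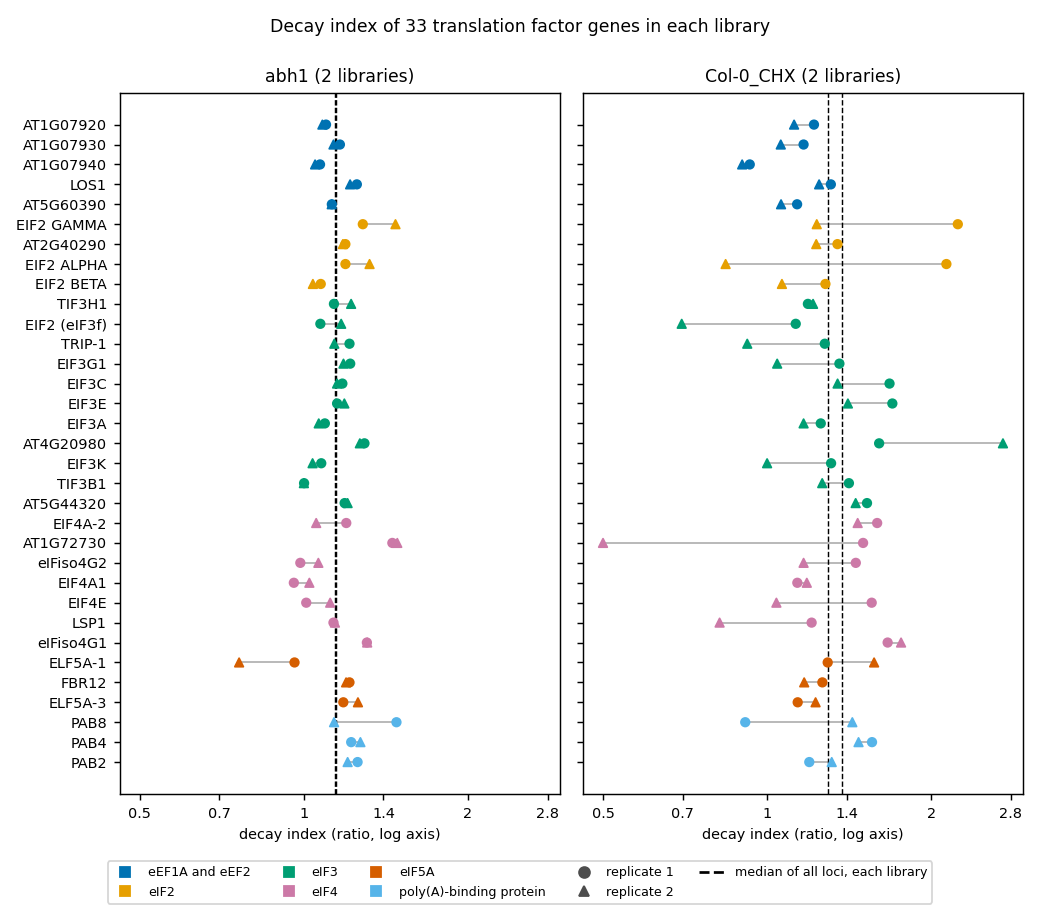
Decay index (ratio, log axis) of each of the 33 genes in the 2 abh1 libraries (left) and the 2 Col-0_CHX libraries (right), coloured by family, with circles for replicate 1, triangles for replicate 2, a grey bar joining them, and dashed lines at the median of all loci in each library. In abh1 the genes lie between 0.761 and 1.48 and near the dashed lines, while in Col-0_CHX they span 0.5 to 2.71 and several pairs of points lie far apart.

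The genes lay close to each other and close to their repeat in the abh1 libraries. The SD of the log2 index across the 33 was 0.15 and 0.17 in abh1 versus 0.28 and 0.42 in Col-0_CHX. Over all loci it was 0.40 and 0.40 in abh1 and 0.67 and 0.65 in Col-0_CHX. The median distance between the 2 libraries of a group was 0.044 on the log2 scale for the 33 genes in abh1 and 0.16 in Col-0_CHX, where all loci had 0.14 and 0.32. None of the 33 differed by over 1.5-fold between the abh1 libraries and 6 did between the Col-0_CHX libraries, against 9.58% and 29.9% of all loci. Without repeated values (set out next) it was 0 of 19 translation factors in abh1 and 4 of 19 (21.1%) in Col-0_CHX, against 1.98% and 11.3% of such loci, so that in Col-0_CHX the members' share was then the higher one.

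Repeated values were rare among these genes in abh1 and less so in Col-0_CHX, and 19 of the 33 had none in any library. In abh1 it was 1 and 0 of the 33, against 16.3% and 18.5% of all loci, and in Col-0_CHX 8 and 11, against 40.4% and 39.8%. Over all loci, 6572 had no repeated value in any library. Among the 19 translation factors of that kind the SD across genes was 0.14 and 0.12 in abh1, where the 6572 loci had 0.30 and 0.30. In Col-0_CHX it was 0.29 and 0.42, where the 6572 loci had 0.44 and 0.42.

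**Figure D2:**
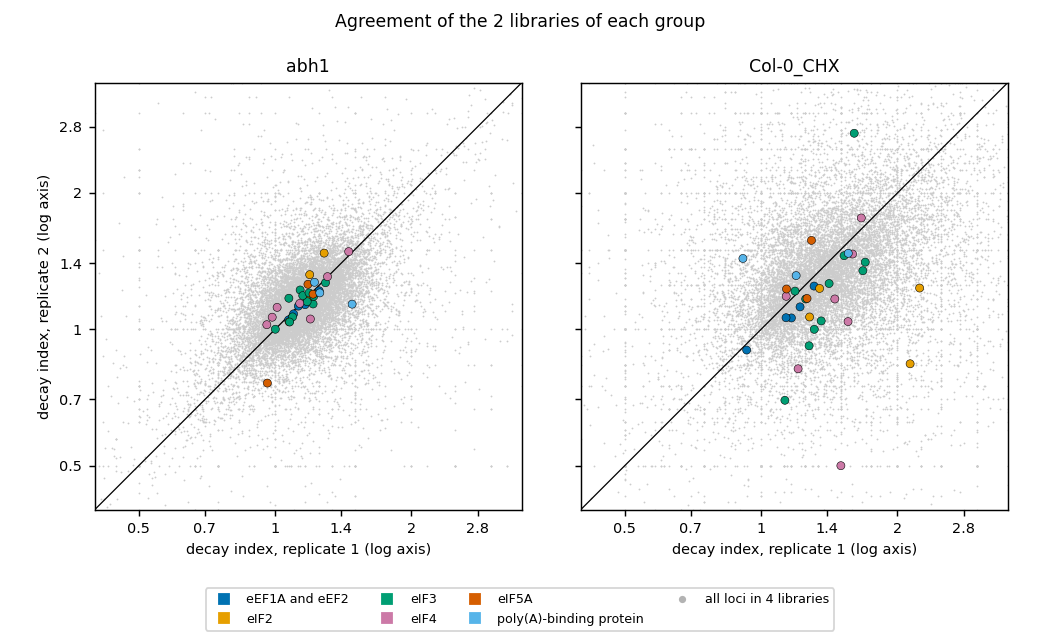
Decay index in replicate 2 against replicate 1 (both log axes) for abh1 (left) and Col-0_CHX (right), with the 33 genes coloured by family over all loci in 4 libraries in grey, and a line where both are equal; loci outside the drawn range are not shown. The genes keep near the line in abh1 and 25 of 33 (75.8%) lie below it in Col-0_CHX, as 57.4% of all loci do.

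The order of the genes in one library was largely kept in the other abh1 library, with Pearson's r of 0.73 and Spearman's rho of 0.77 over the 33. Between the Col-0_CHX libraries these were 0.19 and 0.35. Over all 17049 loci Pearson's r was 0.43 in abh1 and 0.24 in Col-0_CHX. Without repeated values r was 0.62 over 19 translation factors and 0.76 over 6572 loci in abh1, and 0.25 and 0.55 in Col-0_CHX. The members' r was then the lower one in abh1 too, as it already was in Col-0_CHX. Between the group means r was 0.13 over the 33 genes and 0.17 over all loci, and without repeated values it was 0.41 and 0.32. These are descriptions across genes that share libraries, and genes are not independent replicates. The second library was below the first for 19 of the 33 (57.6%) in abh1 and for 25 (75.8%) in Col-0_CHX, where all loci had 51.7% and 57.4%.

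The elongation factors had log2 differences between -0.10 and 0.21, abh1 minus Col-0_CHX, and none of the 5 passed the test. With each library centred on its own median all 5 were positive, from 0.12 to 0.43, where 50.9% of all loci were negative. In all, 4 genes are placed with eEF1A here, AT1G07920, AT1G07930, AT1G07940 and AT5G60390, and the name table gives them no symbol. The first 3 are neighbours on the chromosome. Copies of eEF1A are very alike and how reads shared between copies were counted is not given, so a value for 1 copy is uncertain.

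AT1G07920 had an index of 1.1 and 1.08 in abh1 versus 1.22 and 1.12 in Col-0_CHX. For AT1G07930 it was 1.16 and 1.13 in abh1 versus 1.17 and 1.06 in Col-0_CHX. AT5G60390 had 1.13 and 1.13 in abh1 versus 1.14 and 1.06 in Col-0_CHX. The groups overlapped for AT1G07930 and AT5G60390, and for AT1G07920 both abh1 values lay just below the Col-0_CHX values. Such a lower pair was seen at 45.2% of all loci. AT1G07940 was the lowest of the eEF1A copies in every library, with 1.07 and 1.05 in abh1 versus 0.929 and 0.90 in Col-0_CHX. It was the only 1 of the 33 genes with both abh1 values above both Col-0_CHX values, which 10.7% of all loci had. The log2 difference, abh1 minus Col-0_CHX, was 0.21 ± 0.13 (SE), with a 95% interval from -0.17 to 0.59 and a limma adjusted p of 0.436, so it did not pass. Its value in the second Col-0_CHX library was a repeated value.

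LOS1, the eEF2 gene, had an index of 1.25 and 1.22 in abh1 versus 1.31 and 1.25 in Col-0_CHX. These groups overlapped, and LOS1 stood above all eEF1A copies in every library. Its log2 difference of -0.05 had a 95% interval from -0.44 to 0.34. The median difference of the 5 elongation factors was 0.04. The median over all loci was -0.23, and 4 of the 5 genes had no repeated value in any library.

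Of the 7 eIF4 genes with an index, 4 (57.1%) had both abh1 values below both Col-0_CHX values, against 45.2% of all loci. After centring the difference was negative for 5 of the 7 and positive for 2, where 50.9% of all loci were negative. The RNA helicase EIF4A1 had an index of 0.959 and 1.02 in abh1 versus 1.14 and 1.18 in Col-0_CHX. Its close copy EIF4A-2 had 1.2 and 1.05 in abh1 versus 1.59 and 1.47 in Col-0_CHX. For both helicases the groups did not overlap. AT1G72730, also placed with eIF4 and without a symbol, had 1.45 and 1.48 in abh1 versus 1.5 and 0.5 in Col-0_CHX. Both of its Col-0_CHX values, which lay far apart, were repeated values.

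The plant has a second cap-binding complex, in which the isoforms eIFiso4E and eIFiso4G take the place of eIF4E and eIF4G. The cap-binding protein EIF4E had an index of 1.01 and 1.12 in abh1 versus 1.56 and 1.04 in Col-0_CHX. LSP1, which is eIFiso4E and is needed by potyviruses, had 1.13 and 1.14 in abh1 versus 1.21 and 0.818 in Col-0_CHX. Groups overlapped for both cap-binding proteins, as the second Col-0_CHX library lay between the abh1 values for EIF4E and below them for LSP1. The scaffold eIFiso4G1 had 1.31 and 1.31 in abh1 versus 1.66 and 1.76 in Col-0_CHX, and its relative eIFiso4G2 had 0.985 and 1.06 in abh1 versus 1.45 and 1.17 in Col-0_CHX. Both scaffolds were lower in each abh1 library than in each Col-0_CHX library. Both Col-0_CHX values of eIFiso4G2, and both of LSP1, were repeated values, as was the first of EIF4E, while eIFiso4G1 had none.

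eIFiso4G1 had the smallest p of this group and was among the 4 highest of the 33 genes in both abh1 libraries. Its mean log2 index was 0.39 ± 0.0013 in abh1 versus 0.78 ± 0.058 in Col-0_CHX (SD, n = 2 each), with no repeated value. The difference was -0.39 ± 0.13 (SE), with a 95% interval from -0.78 to -0.0025. The limma adjusted p was 0.248, so the gene did not pass. With the libraries set to equal quantiles the difference was 0.015.

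Among the 11 eIF3 genes, 6 had both abh1 values below both Col-0_CHX values, and the other 5 overlapped. That is 54.5%, against 45.2% of all loci. After centring the difference was negative for 5 genes and positive for 6, where 50.9% of all loci were negative. In each abh1 library the 11 lay between 1.00 and 1.29, with an SD of 0.10 and 0.10 on the log2 scale across genes, against 0.20 and 0.49 in Col-0_CHX. EIF3A, the largest core subunit, had an index of 1.09 and 1.07 in abh1 versus 1.25 and 1.17 in Col-0_CHX. TIF3B1, the core subunit eIF3b, had 1.00 and 1.00 in abh1 versus 1.41 and 1.26 in Col-0_CHX. EIF3C had 1.18 and 1.15 in abh1 versus 1.68 and 1.35 in Col-0_CHX. These 3 core subunits were all lower in abh1 without overlap. The second Col-0_CHX value of EIF3A was a repeated value.

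Among the other subunits, EIF3E had 1.15 and 1.19 in abh1 versus 1.70 and 1.41 in Col-0_CHX. AT5G44320 had 1.19 and 1.2 in abh1 versus 1.52 and 1.45 in Col-0_CHX. AT4G20980 had 1.29 and 1.27 in abh1 versus 1.61 and 2.71 in Col-0_CHX, the highest value of any of the 33 genes in any library. The last 2 are placed with eIF3 and have no symbol in the name table, and in all 3 the groups did not overlap. AT2G39990, which the table calls EIF2 and also eIF3F, had 1.07 and 1.17 in abh1 versus 1.13 and 0.697 in Col-0_CHX. TIF3H1, the subunit eIF3h, which in Arabidopsis helps ribosomes restart after an upstream reading frame, had 1.14 and 1.22 in abh1 versus 1.19 and 1.21 in Col-0_CHX. Its 4 values lay within a narrow range and showed no order by group. The second Col-0_CHX value of TIF3H1 and the first of AT5G44320 were repeated values.

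The small subunit EIF3K had 1.08 and 1.04 in abh1 versus 1.31 and 1.00 in Col-0_CHX. EIF3G1, an RNA-binding subunit, had 1.22 and 1.18 in abh1 versus 1.36 and 1.04 in Col-0_CHX. TRIP-1, the subunit eIF3i, had 1.21 and 1.14 in abh1 versus 1.28 and 0.920 in Col-0_CHX. In each of these 3 the abh1 pair lay inside the spread of the Col-0_CHX pair. The second Col-0_CHX value of EIF3K and the first of EIF3G1 were repeated values.

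TIF3B1 had the smallest p of the eIF3 genes. Its mean log2 index was 0.0011 ± 0.00083 in abh1 versus 0.42 ± 0.12 in Col-0_CHX (SD, n = 2 each). The difference was -0.42 ± 0.14 (SE), with a 95% interval from -0.83 to 0.00039 and a limma adjusted p of 0.249, so it did not pass. Its 4 values were free of repeated values.

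Of the 4 eIF2 genes, 2 had Col-0_CHX values over 1.5-fold apart and 2 did not. EIF2 ALPHA, the subunit whose phosphorylation shuts initiation down, had an index of 1.19 and 1.32 in abh1 versus 2.13 and 0.839 in Col-0_CHX. EIF2 GAMMA, which binds the initiator tRNA and GTP, had 1.28 and 1.47 in abh1 versus 2.24 and 1.23 in Col-0_CHX. In these 2 genes the Col-0_CHX libraries stood on either side of both abh1 libraries. The second Col-0_CHX value of EIF2 GAMMA was a repeated value. AT2G40290, placed with eIF2, had 1.19 and 1.18 in abh1 versus 1.35 and 1.23 in Col-0_CHX, and was the only eIF2 gene without overlap. Both of its Col-0_CHX values were repeated values. Having abh1 below Col-0_CHX without overlap was thus seen in 25% of the eIF2 genes, against 45.2% of all loci.

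EIF2 BETA, the remaining subunit, had 1.07 and 1.04 in abh1 versus 1.28 and 1.06 in Col-0_CHX. It had the smallest p of the 4, with a log2 difference of -0.14 ± 0.16 (SE), a 95% interval from -0.62 to 0.33 and a limma adjusted p of 0.661. All 4 eIF2 genes had a negative difference, from -0.27 to -0.09, where 72.2% of all loci did. After centring 1 of the 4 was negative and 3 were positive, where 50.9% of all loci were negative.

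None of the 3 eIF5A genes passed the test. In 1 of them (33.3%) both abh1 values lay below both Col-0_CHX values, against 45.2% of all loci. ELF5A-1 had an index of 0.962 and 0.761 in abh1 versus 1.29 and 1.57 in Col-0_CHX. FBR12, the copy also called ELF5A-2, had 1.21 and 1.2 in abh1 versus 1.26 and 1.17 in Col-0_CHX. ELF5A-3 had 1.18 and 1.26 in abh1 versus 1.14 and 1.23 in Col-0_CHX. ELF5A-1 was the lowest or next to lowest of the 33 genes in abh1, and the other 2 copies overlapped between groups. The second Col-0_CHX value of ELF5A-3 was a repeated value.

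The log2 index of ELF5A-1 averaged -0.23 ± 0.24 in abh1 versus 0.51 ± 0.20 in Col-0_CHX (SD, n = 2 each). The difference of -0.74 ± 0.21 (SE) was the lowest of the 33, a 1.67-fold higher index in Col-0_CHX, with a 95% interval from -1.34 to -0.13. It had the smallest p of all 33 genes and did not pass, with a limma adjusted p of 0.213. In 3 of its 4 libraries the value was a repeated value. FBR12, with no repeated value, had a difference of -0.01 and an interval from -0.41 to 0.38. The gap between the copies was not tested.

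The poly(A)-binding proteins described here, PAB2, PAB4 and PAB8, are the widely expressed ones of the plant. PAB2 had an index of 1.25 and 1.2 in abh1 versus 1.2 and 1.31 in Col-0_CHX. PAB4 had 1.22 and 1.27 in abh1 versus 1.56 and 1.47 in Col-0_CHX. PAB8 had 1.48 and 1.14 in abh1 versus 0.912 and 1.43 in Col-0_CHX. PAB4 alone of the 3 did not overlap, while PAB8 varied within each group by more than the groups differed. That is 33.3% with abh1 below Col-0_CHX, against 45.2% of all loci. The log2 difference of PAB4 was -0.28 ± 0.14 (SE), with a 95% interval from -0.67 to 0.11 and a limma adjusted p of 0.346.

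Taking all genes, 0 of the 33 translation factors passed limma's moderated test over all 17049 loci at a Benjamini-Hochberg adjusted p under 0.05. In the same test 0 of all loci passed (0%), with 0.167 as the smallest adjusted p. At an unadjusted p under 0.05, 2 of the 33 were lower in abh1 (ELF5A-1 and eIFiso4G1) and 0 higher, where 17.2% of all loci were lower and 2.84% higher. The 2 libraries of abh1 lay below both of Col-0_CHX for 14 of the 33 (42.4%) and above them for 1 (3.03%), where the shares of all loci were 45.2% and 10.7%.

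The members' share on the lower side was thus near that of all loci. The log2 difference was negative for 23 of 33 genes (69.7%), and for 72.2% of all loci. Its median was -0.12, against -0.23 over all loci, so the 33 genes lay 0.11 above the general shift, or 0.15 without the first Col-0_CHX library and 0.066 without the second. Without the first Col-0_CHX library the median was -0.04, and without the second it was -0.20. After each library was centred on its own median, the difference was negative for 13 of the 33 and positive for 20. The median difference was then 0.10, and 50.9% of all loci were negative.

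**Figure D3:**
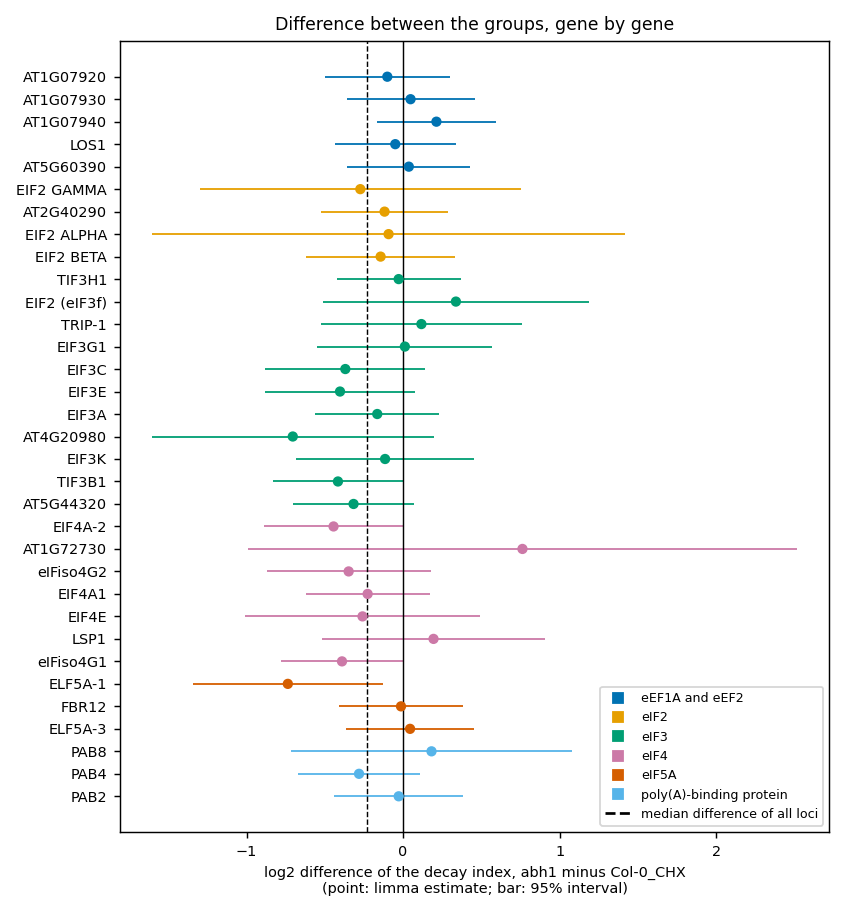
Log2 difference of the decay index, abh1 minus Col-0_CHX, for each of the 33 genes, with the 95% interval from limma as a bar, colours for families, a solid line at 0 and a dashed line at the median difference of all loci (-0.23). The bars of ELF5A-1 and eIFiso4G1 end below 0 before adjustment for the number of loci, and the elongation factors lie between -0.10 and 0.21.

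Over the 6572 loci without repeated values, 0 of the 19 translation factors passed, while 8.03% of these loci were lower and 0.593% higher in abh1 past a limma adjusted p of 0.05. At an unadjusted p under 0.05, 5 of the 19 were lower (EIF4A-2, eIFiso4G1, TIF3B1, EIF3E and PAB4), where 29.5% of these loci were. The smallest limma adjusted p among the 19 was that of eIFiso4G1, at 0.0810. The next fits, over the same loci, were added after the data were seen and leave a Col-0_CHX library alone in its group. Their spread comes from the abh1 pair alone, so calls leave out the distance between the Col-0_CHX libraries. Without the first Col-0_CHX library, EIF2 ALPHA was at 0.58, and TIF3B1, EIF3C and EIF3E at -0.33, -0.21 and -0.27. With the second left out instead, EIF2 ALPHA was at -0.77, and TIF3B1, EIF3C and EIF3E at -0.50, -0.53 and -0.54, all called lower. These 4 of 19 stand against 27.4% of the 6572 loci called lower in that fit, and 0 of 19 against 2.4% called higher. With the first left out instead, AT4G20980 passed on the lower side (-1.08, adjusted p = 0.0370) and AT2G39990 on the higher side (0.68, adjusted p = 0.0421), where 15.1% of loci were called lower and 2.19% higher.

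**Figure D4:**
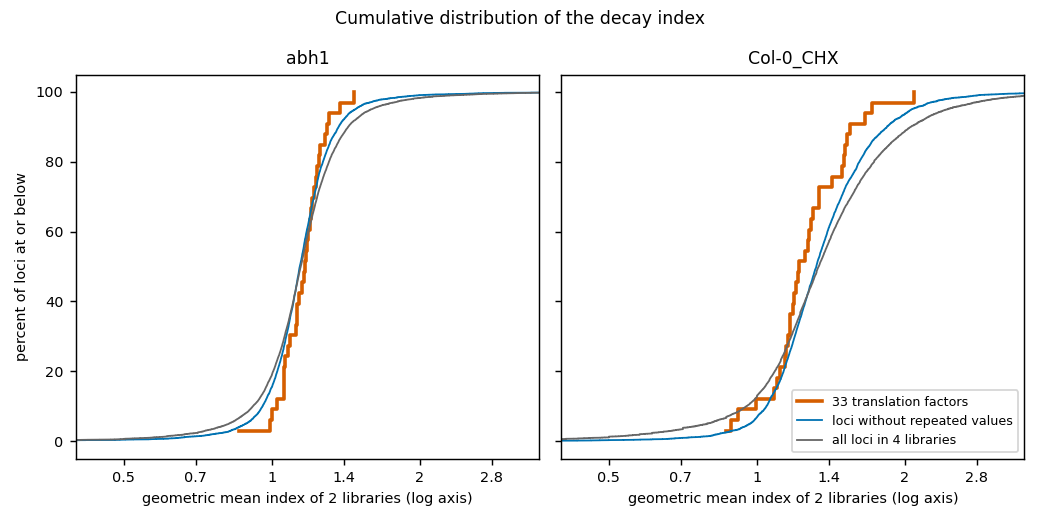
Cumulative share (percent) of loci at or below a given geometric mean index of the 2 libraries (log axis) in abh1 (left) and Col-0_CHX (right), for the 33 translation factors, the 6572 loci without repeated values and all 17049 loci. The curve of the translation factors is the steepest in abh1, and over its middle and upper part it runs left of the others in Col-0_CHX.

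Other genes of initiation and elongation were taken from a list of 46 loci, with eIF1, eIF1A, eIF2B, eIF4B, eIF5, eIF5B, eIF6, eEF1B and further copies of the families above. An index in all 4 libraries was given for 38. The index was lower in abh1 for 20 of these and higher for 18, with a median difference of -0.14, where 72.2% of all loci were lower. After centring 16 were lower and 22 higher (median 0.08), where 50.9% of all loci were lower. Without repeated values 6 of 16 were lower and 10 higher (median 0.03), where 77.0% of such loci were lower. None of the 38 passed limma's test over all loci. At an unadjusted p under 0.05, 5 were lower and 3 higher, set against 17.2% and 2.84% of all loci. Their SD across genes was 0.42 and 0.32 on the log2 scale in abh1 versus 0.49 and 0.56 in Col-0_CHX, wider than that of the 33 genes in each library.

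On the lower side, the smallest p values were those of AT4G18300 and eIF4E3. AT4G18300, which has no symbol in the name table, had an index of 1.06 and 1.07 in abh1 versus 2.70 and 2.69 in Col-0_CHX, which is -1.34 ± 0.13 (SE) on the log2 scale, and its limma adjusted p was 0.167. Among loci without repeated values it was the only one of 16 listed loci to pass (adjusted p = 0.0383), and with these libraries centred the adjusted p was 0.0665. The cap-binding protein eIF4E3, a relative of eIF4E, had 0.999 and 0.906 in abh1 versus 1.73 and 1.64 in Col-0_CHX, with a limma adjusted p of 0.167. Both of its Col-0_CHX values were repeated values.

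Higher in abh1, with the smallest p on that side, were AT1G36730 and AT2G44070, both without a symbol. AT1G36730 had 1.01 and 1.15 in abh1 versus 0.583 and 0.625 in Col-0_CHX, with a limma adjusted p of 0.167. AT2G44070 had 4.8 and 3.0 in abh1 versus 1.56 and 1.61 in Col-0_CHX, with a limma adjusted p of 0.181. Neither passed. Both Col-0_CHX values of AT1G36730, and the second abh1 value of AT2G44070, were repeated values.

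Of the 46 loci, 4 were listed in each abh1 library but not in Col-0_CHX at all, and these were looked at after their values were seen. They were AT2G18720, the eIF3c copy TIF3C2, and PAB3 and PAB5, poly(A)-binding proteins known from reproductive tissue. PAB3 had 1.78 and 1.29 in the abh1 libraries, and PAB5 had 1.39 and 0.754. Of the other poly(A)-binding proteins on this list, PAB6 had an index in every library and PAB1 in none. PAB7 had an index in each abh1 library and in the first Col-0_CHX library. Both abh1 values of AT2G18720 and of TIF3C2, and the first of PAB5, were repeated values. Of the 21858 loci with an index in both abh1 libraries, 16.2% had none in either Col-0_CHX library, so the 4 of 44 did not exceed the general share. Of the 17 floral markers, 11 had none in either Col-0_CHX library, and the part of this here was not tested.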

How the data were processed

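GMUCT libraries of polyA-selected RNA, read at 50 nt with strand kept, were made from 2 abh1 and 2 Col-0_CHX samples per the labels' protocols. The submitters' processing notes name the TAIR10 genome, STAR 2.4.0 and cutadapt 1.4.2. The authors deposited 1 table per library, with 1 gene model per locus and the index of that model, which is a linear ratio. How it was computed, on which annotation and from how many reads is not stated in the labels. Pairs of libraries of a group had identical values at 0.334% (abh1) and 0.645% (Col-0_CHX) of loci, so none was a copy.

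Indices were put on the log2 scale without a pseudocount, as none was 0. The two-sided test of abh1 minus Col-0_CHX used lmFit and eBayes of limma 3.58.1 (R 4.3.3) with no covariate, for the loci listed in every library, and Benjamini-Hochberg adjustment over all of them. Descriptions and plots used matplotlib 3.10.9, scipy 1.17.1, pandas 2.3.3 and numpy 2.4.6 under Python 3.11.15. The fit was also run on simulated data with the same spread in both groups, whereas the real Col-0_CHX libraries lay further apart than the abh1 libraries. That run cannot show how the test handles unequal spread. Symbols came from a RefSeq table of TAIR10.1, used for names and neighbours only because the build differs, so no coordinates are printed. All 34 members were in it, 26 with a symbol. The other 8 keep their locus name and are placed in a family by the member list.

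The genes, lists and tests were chosen with earlier results of these data known. All members with an index are named with their values, and the fit is given for the smallest p of each family. Of the other factors, the 2 smallest p values in each direction are named. Some members are named further for an interval or a value under another setting, after their values were seen. Paralogs were not compared by protein sequence, since sequences were not used here. Alternatives were centring, quantile normalization, loci without repeated values, loci listed at least once in each group, robust and trended fitting, a replicate block, a threshold of 0.1 and leaving out each library. A library left alone in its group takes its spread from the other group. Combining the filter on repeated values with centring or with leaving out a library was added after the data were seen.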

Additional observations from a re-analysis of the deposited data

How the results depend on the processing

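Over the planned settings, 0 of the 33 translation factors passed limma's test in any, and 0 of all 17049 loci did, except that 567 loci passed with repeated values left out, 1 of them (AT4G18300) among the other factors. The median difference of the 33 genes, -0.12, was 0.10 after centring and 0.12 after quantile normalization, and -0.20 to -0.04 with 1 library left out. Settings chosen after seeing the data, with repeated values left out, gave a median of 0.11 and 0 calls after centring, and 0 calls without either abh1 library. Without the first Col-0_CHX library there were 1137 loci, 2 translation factors and 1 other factor, and without the second 1957, 4 and 4. The replicate block pairs samples by a number that is only a name, since the titles of the abh1 libraries do not carry the same pair of numbers as those of Col-0_CHX. It left 0 calls and the median at -0.12, and deviations of libraries with the same number had a correlation of -0.0043.

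Centring, quantile normalization and leaving out a library change the differences themselves, and of 198 values for single translation factors under these, 41 changed sign and 157 did not, none of them past the threshold. The other planned settings leave each difference as it is. Centring gave 0.12 for AT1G07920, 0.17 for LOS1, 0.055 for EIF3A, 0.19 for TIF3H1, 0.10 for EIF3K, 0.10 for AT2G40290, 0.13 for EIF2 ALPHA, 0.076 for EIF2 BETA, 0.21 for FBR12 and 0.19 for PAB2. Centring takes the general shift out of each difference. Quantile normalization gave 0.051 for AT1G07920, 0.21 for LOS1, 0.015 for eIFiso4G1, 0.18 for TIF3H1, 0.018 for EIF3K, 0.12 for AT2G40290, 0.21 for EIF2 ALPHA, 0.16 for EIF2 GAMMA, 0.21 for FBR12, 0.22 for PAB2 and 0.047 for PAB4. For these the cause was not tested.

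With 1 library left out, the differences that changed sign ran from -0.022 to 0.12 for AT1G07930, -0.012 to 0.085 for AT5G60390, -0.030 to 1.55 for AT1G72730, -0.55 to 0.031 for EIF4E, -0.086 to 0.47 for LSP1 and -0.010 to 0.68 for AT2G39990. They ran from -0.081 to 0.024 for TIF3H1, -0.31 to 0.080 for EIF3K, -0.18 to 0.20 for EIF3G1, -0.12 to 0.35 for TRIP-1, -0.77 to 0.58 for EIF2 ALPHA and -0.70 to 0.16 for EIF2 GAMMA. For FBR12 the range was -0.069 to 0.042, for ELF5A-3 -0.010 to 0.099, for PAB2 -0.096 to 0.040 and for PAB8 -0.14 to 0.51. The cause was not tested. The number of reads is unknown, so what depth limits cannot be given beyond the repeated values.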
